A study of Mus musculus with 12 samples.

Results

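The mitochondrial protein import machinery was followed as 37 genes of the 21671 in the deposited table. The members were 24 genes whose symbols start with Timm or Tomm and a digit, and 13 genes given by name (Samm50, Pam16, Dnajc19, Grpel1, Grpel2, Chchd4, Gfer, Mtx1, Mtx2, Pmpca, Pmpcb, Immt and Dnajc11). The rule names genes by symbol and uses no measured value, though it was written with earlier results of these data known. RNA was sequenced from FL5.12 cells, an established prolymphocytic line from BALB/c mice that is grown with interleukin 3, in 4 conditions with 3 libraries each. Every culture, controls included, carried MycER, a Myc protein fused to a hormone-binding domain, which was delivered by a retrovirus and is switched on by 4-hydroxytamoxifen (OHT). The untreated cells received neither agent. The OHT cells were exposed to 100 nM OHT for 72 h in total. The IACS cells were given IACS-010759, an inhibitor of complex I of the electron transport chain, at 135 nM for 24 h. The OHT_IACS cells were first primed with 100 nM OHT for 48 h and were then kept for 24 h with 135 nM IACS-010759. Their OHT exposure is listed as 72 h in total, as in the OHT cells. The cells were a selected pool of transduced cells. Cells without MycER were not among these libraries, so activation of MycER and any other action of OHT cannot be told apart.

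Nearly all mitochondrial proteins are encoded in the nucleus, made in the cytosol and imported. The TOM complex of the outer membrane recognises them with receptors and passes them through a channel. From there, proteins with a presequence enter the TIM23 channel of the inner membrane and are pulled into the matrix by an ATP-driven motor, where a peptidase cuts off the presequence. Carrier proteins are escorted by small TIM chaperones to the TIM22 translocase, small cysteine-rich proteins are trapped between the membranes by a disulfide relay, and barrel-shaped proteins are inserted by the SAM complex. MYC is known as an activator of many genes for mitochondrial proteins, and import through the inner membrane depends on the membrane potential that the respiratory chain maintains.

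The promoters of 32 of the 37 genes were in the RefSeq table of GRCm38.p6 (Timm21, Tomm40l, Tomm7, Grpel2 and Dnajc11 were not matched). Windows from 250 bases before to 50 bases after the start were searched on both strands for 5 motifs. The letters CCGGAAGT, a core bound by ETS factors, were found in 7 of the 32 windows (21.9%; Mtx2, Pmpcb, Timm10, Timm10b, Timm23, Timm8a2 and Tomm70a), while 4.31% of the windows of all 27025 genes held them. The canonical E-box CACGTG, the core bound by MYC and MAX, was in 5 windows (15.6%; Timm10, Timm8a1, Timm9, Tomm20 and Tomm20l), against 8.09% of all genes. The motif of NRF1, GCGCATGC, was in the windows of Grpel1 and Timm13 (6.25%, all genes 3.05%), and that of YY1, AAGATGGCG, was in those of Mtx1 and Timm50 (6.25%, all genes 1.64%). The element TGATGNAA, bound by ATF4 with CEBP partners, was in none of the 32 windows and in 4.51% of all genes. The genes of the table include non-coding ones, and a match is a description of letters only.

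The last 120 bases before the start are shown for the 4 genes that were called higher with OHT and have the ETS letters there, and for the paralogues Timm17a and Timm17b, which were called in opposite directions and held none of the 5 motifs in these bases. Capitals mark the ETS letters, on either strand. Of the other genes with ETS letters in their windows, Timm10 was called lower with OHT, Timm10b was not called and Timm8a2 was not tested. Of the genes with the E-box, Tomm20 was called higher and Timm10 lower. Timm8a1 and Timm9 were not called, and Tomm20l was not tested. The GRCm38.p6 positions are chr5:21737040-21737159 (plus strand) for Pmpcb, chr14:32201892-32202011 (minus) for Timm23, chr2:74825692-74825811 (plus) for Mtx2, chr16:57121594-57121713 (plus) for Tomm70a, chr1:135313738-135313857 (minus) for Timm17a and chrX:7899216-7899335 (plus) for Timm17b.
Pmpcb: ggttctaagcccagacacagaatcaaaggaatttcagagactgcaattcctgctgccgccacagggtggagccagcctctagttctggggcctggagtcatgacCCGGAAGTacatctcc
Timm23: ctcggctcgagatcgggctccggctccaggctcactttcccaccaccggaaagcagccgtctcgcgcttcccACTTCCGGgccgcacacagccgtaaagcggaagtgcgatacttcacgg
Mtx2: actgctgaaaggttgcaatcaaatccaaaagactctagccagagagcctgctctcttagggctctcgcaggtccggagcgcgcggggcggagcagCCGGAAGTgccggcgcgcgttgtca
Tomm70a: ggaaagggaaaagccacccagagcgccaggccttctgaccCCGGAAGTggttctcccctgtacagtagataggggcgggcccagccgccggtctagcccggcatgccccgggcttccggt
Timm17a: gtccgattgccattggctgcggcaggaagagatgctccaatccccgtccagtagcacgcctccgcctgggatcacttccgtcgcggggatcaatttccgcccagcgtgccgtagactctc
Timm17b: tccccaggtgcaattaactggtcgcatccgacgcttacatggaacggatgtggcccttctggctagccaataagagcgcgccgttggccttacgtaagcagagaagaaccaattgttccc

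Levels were deposited as RPKM, reads on a gene scaled for its length and for the size of the library. Of the 37 genes, 35 reached an RPKM of 1 in 3 or more libraries and were tested. The other 2, Tomm20l and Timm8a2, which are paralogues of Tomm20 and Timm8a1, had at most 3 reads and 1 read in any library, and no fold is given for them. Each tested member had between 173 and 2313 reads in every library. The mean RPKM of the tested members over the 12 libraries ran from 6.97 (Timm10b) to 81.1 (Tomm20). Levels differed widely inside single machines. Among the TOM channel and its small subunits, Tomm5 stood at 77.4 RPKM and Tomm40, the channel itself, at 18.0. The small TIM chaperones ran from 6.97 to 75.0 (Timm8a1). The import motor was among the lower groups, with a median of 17.4 and a range from 8.16 (Dnajc19) to 36.8 (Timm44). In the TIM23 channel the order was Timm23 (68.2), Timm50 (40.9), Timm17a (39.0), Timm21 (19.3) and Timm17b (16.0), and the ranges of Timm50 and Timm17a over the libraries overlapped. Timm22, the channel of the carrier translocase, stood at 14.6.

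Library totals, worked out from the steps between RPKM values, ran from 10376530 to 14550158 reads, with the lowest in OHT replicates 1 and 3. Endogenous Myc, with any transgene reads that fall on it, was lower with OHT (mean 21.0 RPKM) than in untreated cells (36.3). Of 11 markers of B cell precursors that were examined, 9 were under 1 RPKM in every library, and Pax5, Rag1, Dntt, Blnk and Il7r were listed at 0 in all 12. The 3 interleukin 3 receptor genes were present, with a summed RPKM from 69.5 to 82.4, and the myeloid gene Mpo ran from 8.65 to 13.7. Cd79b, at 1.05 to 3.64, was the only one at 1 or more in every library, and Cd79a ran from 0.511 to 1.59. The summed RPKM of the 5 myeloid markers was 14.9 to 16.3 in untreated cells, 10.2 to 12.5 with OHT, 12.7 to 15.4 with IACS and 9.77 to 10.5 with OHT_IACS, with Elane at a median of 0.0 over the libraries. The B cell precursor sum was 3.88 to 4.64 in untreated cells, 2.66 to 2.80 with OHT, 3.77 to 5.06 with IACS and 2.12 to 2.91 with OHT_IACS. The 3 T cell markers, with Cd3e at 0, summed to 1.78 to 2.15, 0.911 to 1.09, 1.58 to 2.32 and 1.39 to 1.76 in the same order, and the 2 erythroid ones to 0.712 to 0.982, 1.22 to 1.71, 1.2 to 1.82 and 1.93 to 2.40. The part of these markers in the results was not tested. In such bulk RNA, a change in the share of cells of a kind and a change in RNA per cell cannot be told apart.

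OHT against untreated asks how the genes responded to activation of MycER. With OHT, 13 of the 35 tested members were called higher and 2 lower by limma at an adjusted p under 0.05, where 18.2% of the 9745 tested genes were called higher and 18.2% lower. The rises were small, from 0.21 to 0.35 on the log2 scale. The median over the 35 members was 0.16 (all genes 0.01), and 29 of 35 lay above 0 (52.0% of all genes). Genes of the receptors, the outer membrane contact sites, the TIM23 channel and the presequence protease supplied 11 of the 13 rises. Those of the disulfide relay, the TIM22 channel and the small TIM chaperones supplied none. The members that were not called lay between -0.23 and 0.21.

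**Figure D1:**
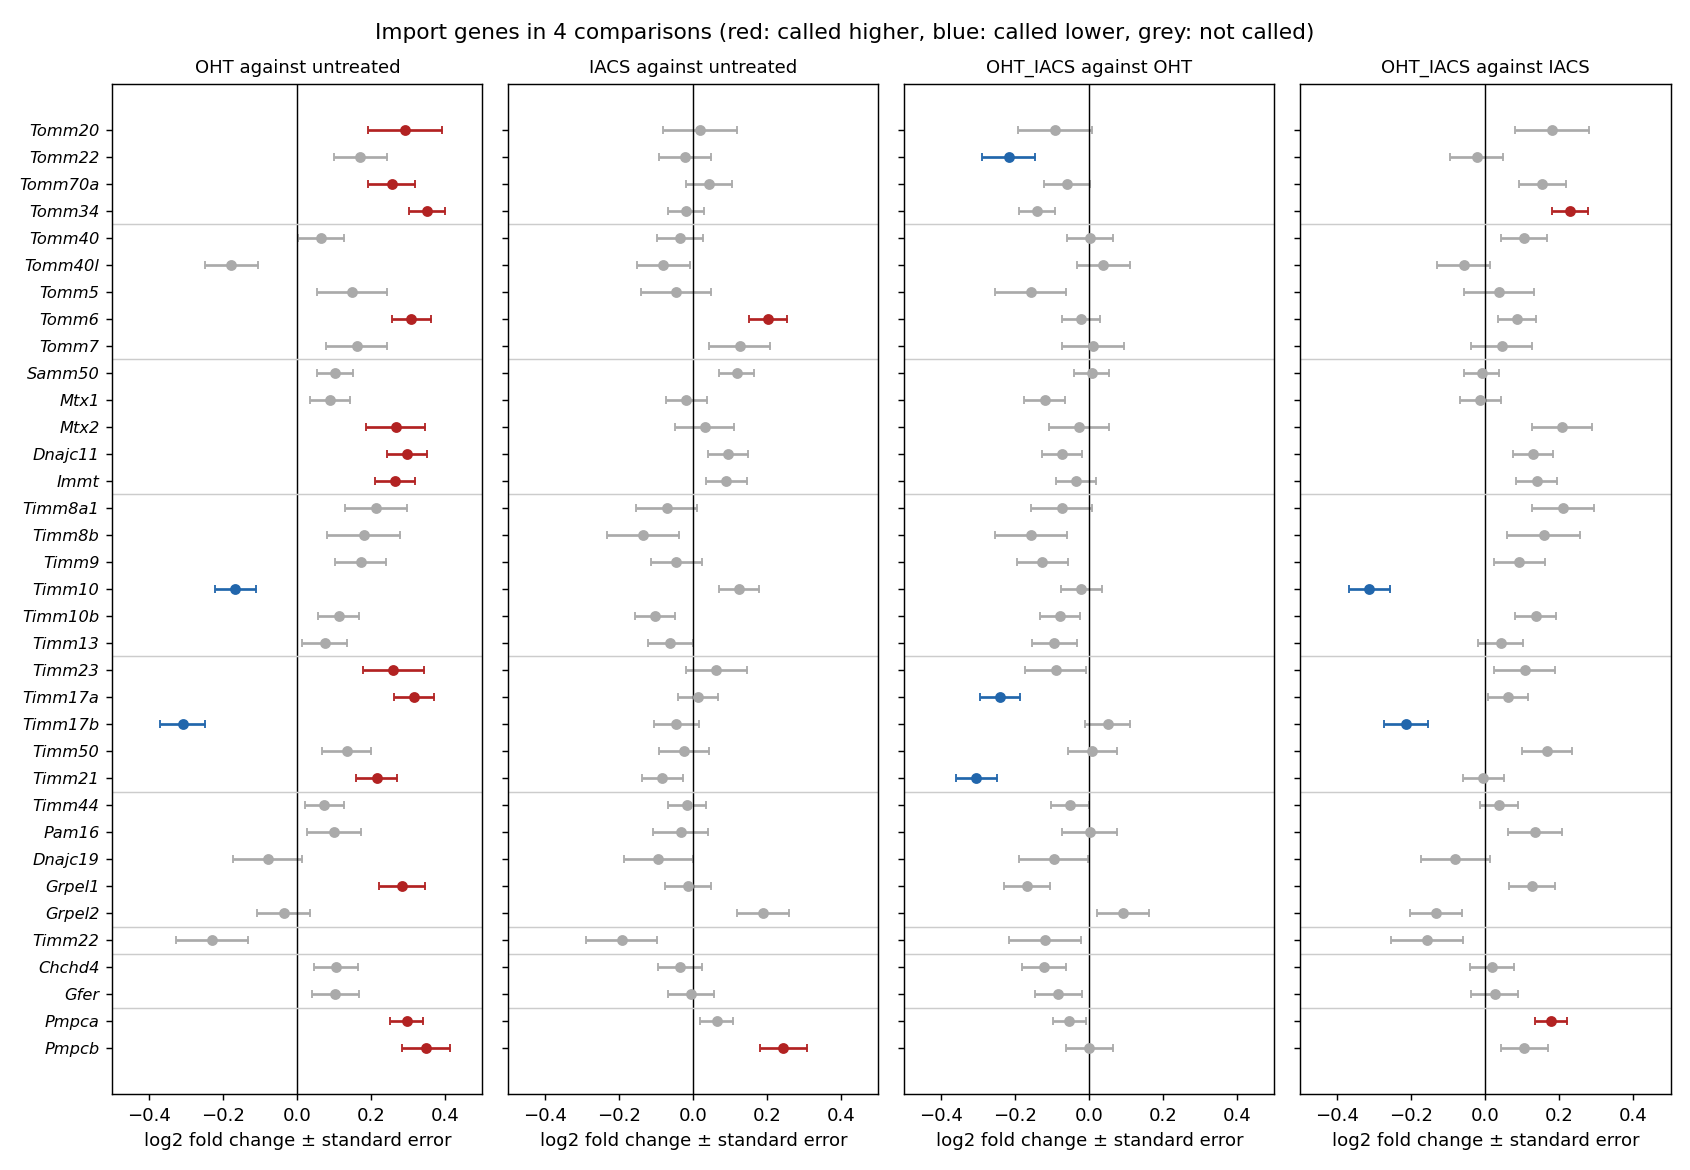
Log2 fold change with its standard error (limma, 3 libraries a group) for the 35 tested import genes in 4 comparisons. Grey lines part the roles, from the TOM receptors at the top to the presequence protease at the bottom. Red and blue mark adjusted p under 0.05. In the OHT panel 13 points are red, where 18.2% of all tested genes were called higher. In the IACS panel 2 are red, where 8.15% of all tested genes were.

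Among the receptors, Tomm34, a cytosolic co-chaperone that accompanies precursors, had the largest rise of the members. Its RPKM was 13.6, 14.4 and 14.6 in the untreated libraries and 17.4, 18.7 and 19.3 with OHT. With IACS it was 15.1, 13.9 and 13.9, and with OHT_IACS 17.5, 16.7 and 16.0. All 6 libraries that received OHT stood above all 6 that did not. The log2 fold change with OHT was 0.35 ± 0.049 (SE, adjusted p = 0.00011). Tomm20, which binds presequences, rose by 0.29 ± 0.10 (adjusted p = 0.038) and Tomm70a, which binds carrier precursors, by 0.26 ± 0.063 (adjusted p = 0.0069). Tomm22, the central receptor, was not called with OHT (0.17, adjusted p = 0.078).

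In the TOM channel, Tomm6, a small stabilising subunit, was the only member of 5 called. It stood at 19.9, 19.0 and 21.1 RPKM in untreated cells and at 25.4, 23.9 and 26.2 with OHT (0.31 ± 0.052, adjusted p = 0.00048). With IACS it was 24.0, 23.2 and 23.1, and with OHT_IACS 25.4, 25.1 and 23.8, so that the 9 treated libraries were all above the 3 untreated ones. Its exons overlap those of Gm21981 on the same strand, and how shared reads were assigned is not given in the sources used here. Tomm40, the channel, was at 18.4, 16.5 and 17.5 in untreated cells and at 18.2, 17.7 and 19.7 with OHT. It stood at 17.8, 16.3 and 17.8 with IACS and at 18.8, 19.4 and 17.4 with OHT_IACS. The 4 groups overlapped and Tomm40 was called in no comparison (OHT 0.07, adjusted p = 0.43).

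Of the outer membrane sorting and contact genes, Dnajc11 (0.30 ± 0.054, adjusted p = 0.00085), Mtx2 (0.27 ± 0.080, adjusted p = 0.020) and Immt (0.26 ± 0.055, adjusted p = 0.0023) rose with OHT. Immt is the core of the complex that shapes cristae and ties it to the outer membrane, and Mtx2 is a partner of the SAM complex. Samm50, the insertase for barrel proteins, was not called. It had 34.6, 35.9 and 36.0 RPKM in untreated cells, 38.8, 37.1 and 40.2 with OHT, 41.0, 38.9 and 37.8 with IACS and 38.5, 39.8 and 38.1 with OHT_IACS. In these deposited values each treated library lay above the untreated ones, but after rescaling the OHT and untreated libraries overlapped. The rescaled differences were 0.10 with OHT (adjusted p = 0.11) and 0.12 with IACS (adjusted p = 0.12).

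The 2 falls came from a chaperone and a channel subunit. Timm10, which forms the hexamer with Timm9 that shields carrier precursors, was at 34.1, 30.8 and 33.2 RPKM in untreated cells and at 30.4, 29.2 and 29.0 with OHT (-0.17 ± 0.055, adjusted p = 0.029). It reached 36.5, 38.5 and 34.0 with IACS and 28.2, 29.8 and 29.2 with OHT_IACS. In these deposited values the lowest untreated library and the highest OHT library differed by little, and after rescaling the groups overlapped. The rescaled groups of Tomm20 and Mtx2, which were called higher, overlapped as well. The IACS and OHT_IACS libraries of Timm10 were well apart. Timm9, the hexamer partner of Timm10, was not called with OHT (0.17, adjusted p = 0.067).

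Timm17b, a paralogue of the TIM23 subunit Timm17a, was at 17.8, 16.5 and 18.1 RPKM in untreated cells and at 14.9, 13.8 and 14.1 with OHT (-0.31 ± 0.060, adjusted p = 0.0014). It stood at 18.5, 17.8 and 15.5 with IACS and at 15.2, 14.8 and 14.4 with OHT_IACS, so that all 6 libraries with OHT lay below all 6 without it. Timm17a moved the other way with OHT. Its RPKM was 37.1, 35.9 and 34.3 in untreated cells, 45.3, 43.4 and 47.1 with OHT, 38.6, 35.8 and 35.9 with IACS and 38.9, 38.1 and 37.6 with OHT_IACS. The rise with OHT was 0.32 ± 0.054 (adjusted p = 0.00055), and the 3 OHT libraries were above the other 9. Gm7180 holds a stretch 96.3% identical to Timm17a.

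Timm23, the channel-forming subunit, was at 61.9, 61.9 and 61.0 RPKM in untreated cells and at 79.0, 65.5 and 81.2 with OHT (0.26 ± 0.082, adjusted p = 0.025). It stood at 65.7, 62.9 and 68.2 with IACS and at 70.9, 70.9 and 69.0 with OHT_IACS. OHT replicate 2 was far closer to the untreated libraries than the other two were. Transcripts of 6 other genes share a near-identical stretch with Timm23, so its level is uncertain by the reads they share. Timm21, which links TOM to TIM23, was at 18.4, 19.4 and 18.7 in untreated cells and at 22.8, 21.3 and 22.6 with OHT (0.21 ± 0.055, adjusted p = 0.0087). With IACS it was 18.8, 18.9 and 16.7, and with OHT_IACS 17.5, 19.3 and 17.1. All 3 OHT libraries were above the other 9.

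In the motor, Grpel1, the nucleotide exchange factor of mitochondrial Hsp70, rose with OHT (0.28 ± 0.062, adjusted p = 0.0031), while its paralogue Grpel2 lay at -0.04 (adjusted p = 0.71). The presequence protease rose in both subunits. Pmpca had 0.29 ± 0.044 (adjusted p = 0.00020). Pmpcb, the catalytic subunit, was at 27.7, 26.4 and 25.9 RPKM in untreated cells and at 36.2, 31.7 and 35.9 with OHT (0.35 ± 0.064, adjusted p = 0.00095). With IACS Pmpcb was 34.4, 31.1 and 31.2, and with OHT_IACS 34.8, 34.3 and 34.3. All 9 treated libraries stood above the untreated ones. Pmpca transcripts share 874 bases with those of Inpp5e on the other strand, and the strand setting of the counting is not given in the sources used here.

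The carrier channel and the disulfide relay did not pass the test in the fit of all libraries. Timm22 was at 16.5, 16.2 and 16.5 RPKM in untreated cells, 16.1, 12.9 and 13.6 with OHT, 16.1, 15.9 and 12.2 with IACS and 12.4, 14.0 and 12.8 with OHT_IACS. Its OHT difference was -0.23 ± 0.097 (adjusted p = 0.080), and the treated groups spread far more than the untreated one. Chchd4, the oxidoreductase of the relay (Mia40), was at 45.8, 42.2 and 43.4 in untreated cells, 50.2, 44.7 and 48.5 with OHT, 44.5, 43.8 and 42.2 with IACS and 44.4, 44.8 and 42.4 with OHT_IACS, with 0.10 for OHT (adjusted p = 0.19).

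**Figure D2:**
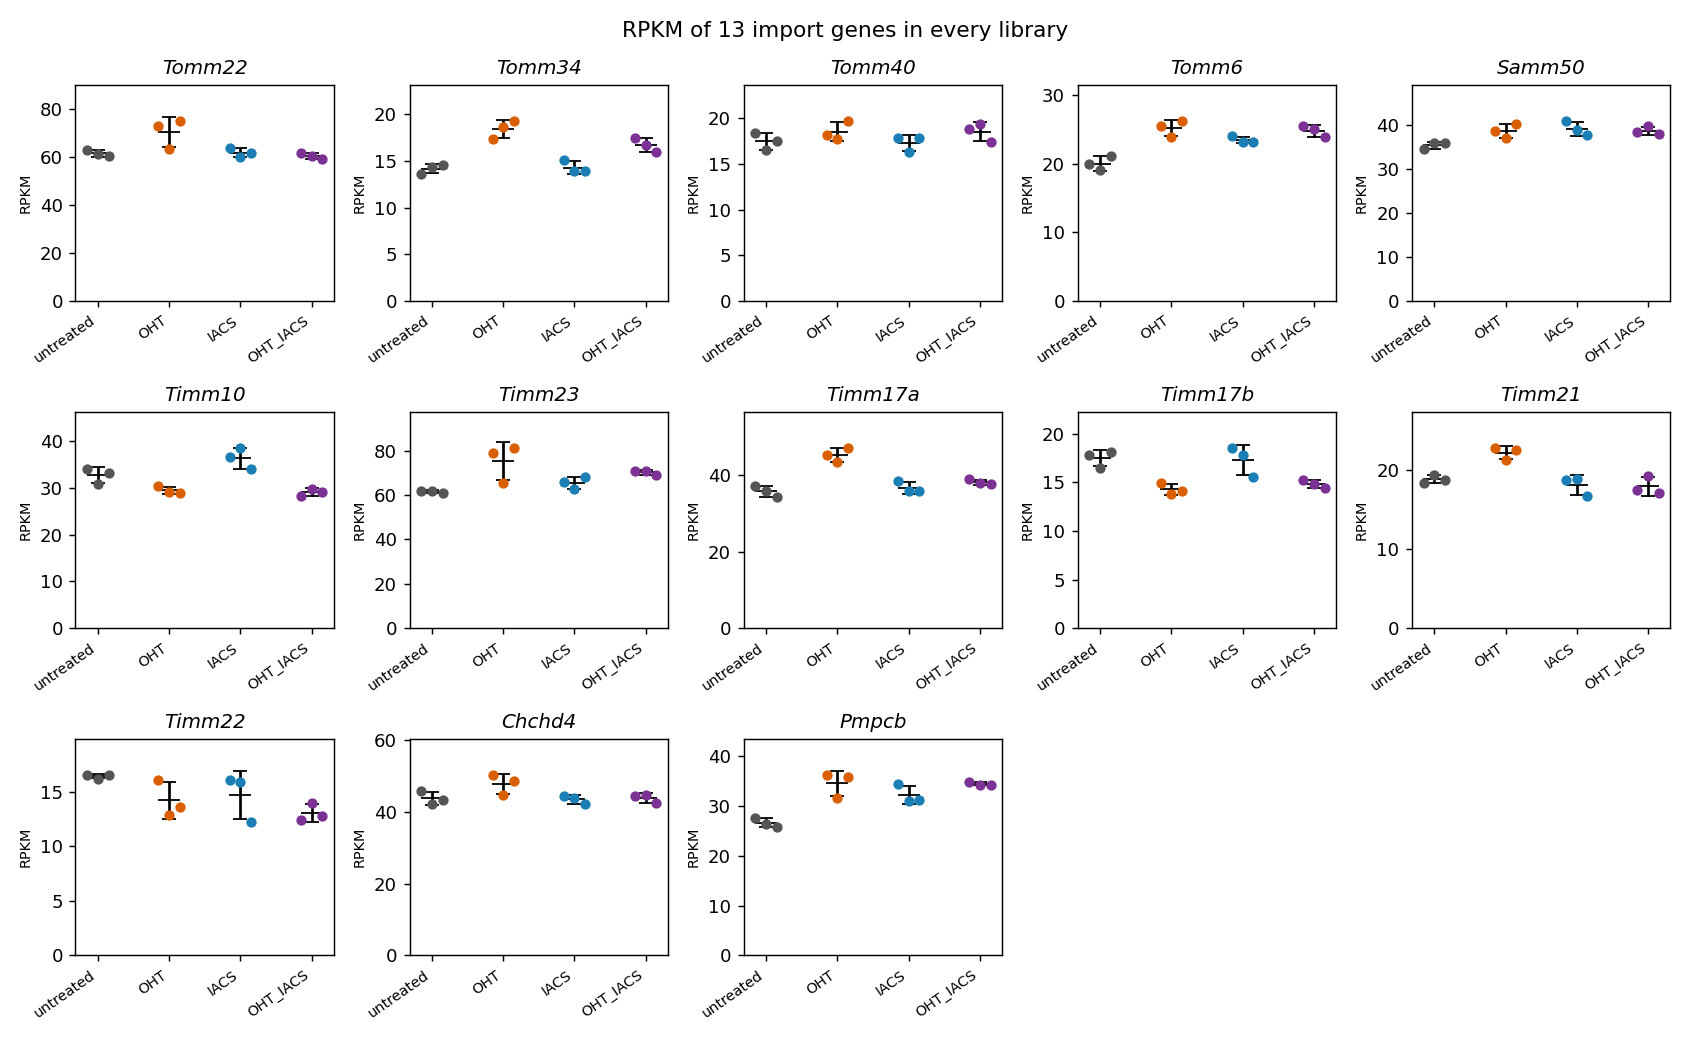
Deposited RPKM of 13 import genes in every library, with 3 points a condition in the order of replicates 1 to 3 and the mean ± SD in black. Each axis starts at 0. The OHT points of Timm17a and Timm21 lie above all others, and those of Tomm34 and Timm17b lie apart from the untreated ones in opposite directions.

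The OHT response was uneven between its libraries and moved with the library total. Relative to the untreated mean, the median of the 35 members was 0.28 in OHT replicate 1 and 0.17 in replicate 3, whose totals were 10376530 and 10770476, but 0.01 in replicate 2, whose total was 13956222. Within conditions, the reads of a member rose by a median of 0.80 on the log2 scale for each doubling of the total, compared with 1.22 for all tested genes. This slope fell with read density in members and in all genes. Between 0.1 and 0.3 reads per base it was 0.88 in 13 members and 1.2 in 3491 genes. Between 0.3 and 0.6 reads per base it was 0.81 in 16 members and 0.87 in 1326 genes, and between 0.6 and 2 reads per base it was 0.44 in 5 members and 0.47 in 506 genes. When the log2 library total was fitted as a covariate, 9 of the 15 members remained called (Tomm34, Pmpca, Tomm6, Timm17a, Pmpcb, Dnajc11, Immt, Tomm70a and Timm17b) and the median was 0.04. With OHT replicate 2 as the only OHT library the median was 0.01. Without that library, 24 members were called higher, with a median of 0.26. Calls over all genes, in either direction, were 3546 in the fit of all libraries. They were 2351 with the covariate and 4126 without OHT replicate 2. The calls of Tomm20, Timm23, Mtx2 and Timm10 were also lost without other single libraries. The adjusted p of Tomm20 was 0.12 without untreated replicate 2, 0.11 without untreated replicate 3, 0.14 without OHT replicate 1, 0.10 without OHT replicate 3 and 0.051 to 0.052 without any of the OHT_IACS libraries. That of Timm23 was 0.056 to 0.080 without any untreated library, 0.085 without OHT replicate 1 and 0.11 without OHT replicate 3. That of Mtx2 was 0.059 and 0.071 without untreated replicates 2 and 3, and 0.079 and 0.068 without OHT replicates 1 and 3. That of Timm10 was 0.12 and 0.082 without untreated replicates 1 and 3, and 0.058 and 0.11 without OHT replicates 2 and 3. Timm22 was called lower without OHT replicate 1 (-0.35, adjusted p = 0.0086), without IACS replicate 3 (adjusted p = 0.036), with OHT replicate 2 alone (-0.38, adjusted p = 0.036) and by limma voom on recovered reads (-0.25, adjusted p = 0.021). Samm50 (0.14, adjusted p = 0.013) and Chchd4 (0.16, adjusted p = 0.021) were called higher without OHT replicate 2. Tomm34, Tomm6, Dnajc11, Timm17a, Pmpca and Timm17b were called under all 22 alternatives.

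**Figure D3:**
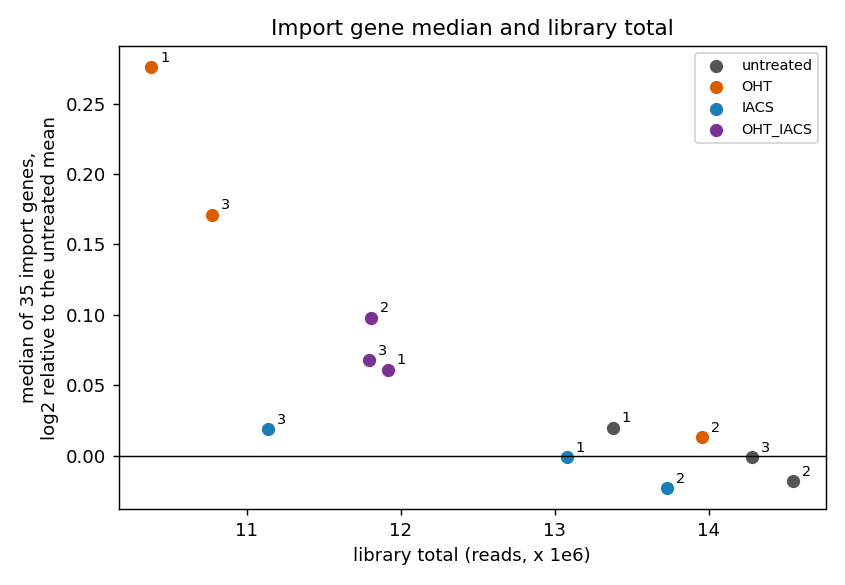
Median log2 level of the 35 tested import genes in each of the 12 libraries, relative to the untreated mean, against the total number of reads of the library, scaled as the axis label states. Numbers beside points are replicates. OHT replicates 1 and 3 have the smallest totals and the highest medians, and OHT replicate 2 lies with the untreated libraries.

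IACS against untreated asks what inhibition of complex I did in cells without OHT. Only 2 of 35 members were called higher, Pmpcb (0.24 ± 0.064, adjusted p = 0.020) and Tomm6 (0.20 ± 0.052, adjusted p = 0.018), and none lower, where 8.15% of all genes were called higher and 7.74% lower. At an unadjusted p under 0.05, 5 members and 30.5% of all genes passed. The median was -0.02 and the members that were not called lay between -0.19 and 0.19. Leaving out untreated replicate 1 or 2 or IACS replicate 1 or 3 ended the call of Tomm6 (adjusted p from 0.054 to 0.083), and leaving out untreated replicate 2 or 3 or IACS replicate 1 or 3 ended that of Pmpcb (0.051 to 0.085). Samm50 was called higher with IACS without OHT replicate 2 (adjusted p = 0.041). With the library total in the fit, limma called 3 members higher with IACS, Grpel2 (0.25, adjusted p = 0.037) beside Pmpcb and Tomm6. The 4 called lower were Timm8b (-0.27), Tomm5 (-0.17), Timm8a1 (-0.17) and Tomm20 (-0.13). Calls over all genes, in either direction, were 1548 in the fit of all libraries and 1592 with the total.

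OHT_IACS against OHT asks the same in primed cells. Here 3 of 35 members were called lower and none higher, where 11.8% of all genes were called lower and 11.9% higher. These were Timm21 (-0.31 ± 0.055, adjusted p = 0.0018), Timm17a (-0.24 ± 0.054, adjusted p = 0.0064) and Tomm22 (-0.22 ± 0.071, adjusted p = 0.042). At an unadjusted p under 0.05, 6 members and 37.2% of all genes passed. Tomm22 was at 73.1, 63.3 and 75.0 RPKM with OHT and at 61.7, 60.5 and 59.0 with OHT_IACS, beside 62.9, 61.1 and 60.4 in untreated cells and 63.6, 59.8 and 61.7 with IACS. Only OHT replicates 1 and 3 stood out. Its call was lost without OHT replicate 1 (adjusted p = 0.13) or 3 (0.14), any OHT_IACS library (0.071 to 0.12), any untreated library (0.056 to 0.060) or IACS replicate 1 (0.059). Without OHT replicate 2, 15 members were called lower. Calls over all genes, in either direction, were 2310 in the fit of all libraries and 2995 without that library. With OHT replicate 2 as the sole OHT library the median was 0.073, with Timm21 at -0.22 and Timm17a at -0.16. With the library total as a covariate, limma kept the calls of Tomm22 (-0.20, adjusted p = 0.00086), Timm21 and Timm17a. Grpel1 and Tomm5 were then also called lower. The median was -0.067 there and -0.075 in the fit of all libraries. The comparison shares its OHT libraries with OHT against untreated.

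OHT_IACS against IACS asks what OHT did in cells that also received the inhibitor. Tomm34 (0.23 ± 0.049, adjusted p = 0.0036) and Pmpca (0.18 ± 0.044, adjusted p = 0.0097) were called higher, where 12.3% of all genes were. Timm10 (-0.31 ± 0.055, adjusted p = 0.00097) and Timm17b (-0.21 ± 0.060, adjusted p = 0.018) were called lower, where 14.2% of all genes were. These libraries are none of those that enter OHT against untreated, and the 4 genes had the same sign in both. The other members called with OHT were not called here. They had all risen with OHT and here lay between -0.006 (Timm21) and 0.21 (Mtx2), with Timm17a at 0.06. The median was 0.09 (all genes -0.0032), and 25 of 35 lay above 0 (49.3% of all genes). The totals of the OHT_IACS libraries were alike, from 11792608 to 11913079, but those of the IACS libraries ran from 11133789 to 13729131. With the library total as a covariate the median was 0.04 and 6 members were called higher. Calls over all genes, in either direction, were 2585 in the fit of all libraries and 2830 with the covariate. Tomm34, Timm10 and Pmpca kept their calls under all 22 alternatives, whereas that of Timm17b was lost in 5. These were IACS replicate 1 or 2 left out (adjusted p = 0.083 and 0.059), OHT_IACS replicate 2 or 3 left out (0.056 and 0.058), and the mean of IACS replicates 1 and 2 as a single sample (0.068). Timm22 was called lower without IACS replicate 3 (-0.27, adjusted p = 0.044).

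The interaction asks whether the response to IACS-010759 differed between primed and nonprimed cells. No member was called by limma. An unadjusted p under 0.05 was reached by 5 members and 12.7% of all genes, and 0.144% of all genes were called higher and 0.0% lower. The 35 values ran from -0.26 to 0.12, with a median of -0.10 (all genes -0.015), and 7 lay above 0 (46.5% of all genes). Without OHT replicate 2, Pmpcb (-0.32), Timm17a (-0.30) and Tomm22 (-0.28) were called by limma, each at an adjusted p of 0.0498. In that fit 149 of the 9745 tested genes were called, in either direction, against 14 in the fit of all libraries.

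Where paralogues or partners serve a single machine, the share of their summed RPKM within a library does not depend on how libraries are scaled. It can still vary with the library total, since the slope fell with read density and partners differ in density. Timm17a had 0.487 reads per base and Timm17b 0.202. The part of the total in the shares was not tested. Timm17a made up 67.6%, 68.5% and 65.5% of the Timm17 pair in untreated cells and 75.3%, 75.8% and 76.9% with OHT. It made up 67.6%, 66.9% and 69.8% with IACS and 71.9%, 72.1% and 72.4% with OHT_IACS. The 3 OHT libraries, including replicate 2 with its large total, ranged from 75.3% to 76.9% and were above all others, and the OHT_IACS libraries stood between them and the rest. The difference with OHT was 8.83 percentage points, and that between OHT_IACS and OHT was -3.89. Exact two-sided permutation tests gave p = 0.1 for OHT, for OHT_IACS against OHT and for OHT_IACS against IACS, which is the smallest p that 3 against 3 allows, and 0.311 after adjustment over 28 tests. No share in the 7 sets could pass the threshold.

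With OHT, the mean shares of the other sets differed from untreated by less than that of Timm17a. Grpel1 made up 65.4% ± 1.59 (SD, n = 3) of the Grpel pair in untreated cells, 62.1% ± 0.601 with IACS, with no overlap, 66.3% ± 2.21 with OHT_IACS and 70.1% ± 3.59 with OHT, where replicate 2 (66.1%) fell inside the untreated range. Mtx1 made up 47.7% ± 1.44 of Mtx1 and Mtx2 in untreated cells, 44.6% ± 1.89 with OHT and 43.0% ± 1.47 with OHT_IACS. Pmpca made up 48.0% ± 1.33 of the protease pair in untreated cells and 44.9% ± 1.52 with IACS. Timm8a1 stayed between 66.4% and 70.1% of its family in every library. The share of Tomm40 beside Tomm40l was 50.7% ± 1.65 in untreated cells and 55.0% ± 2.99 with OHT, with overlap.

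**Figure D4:**
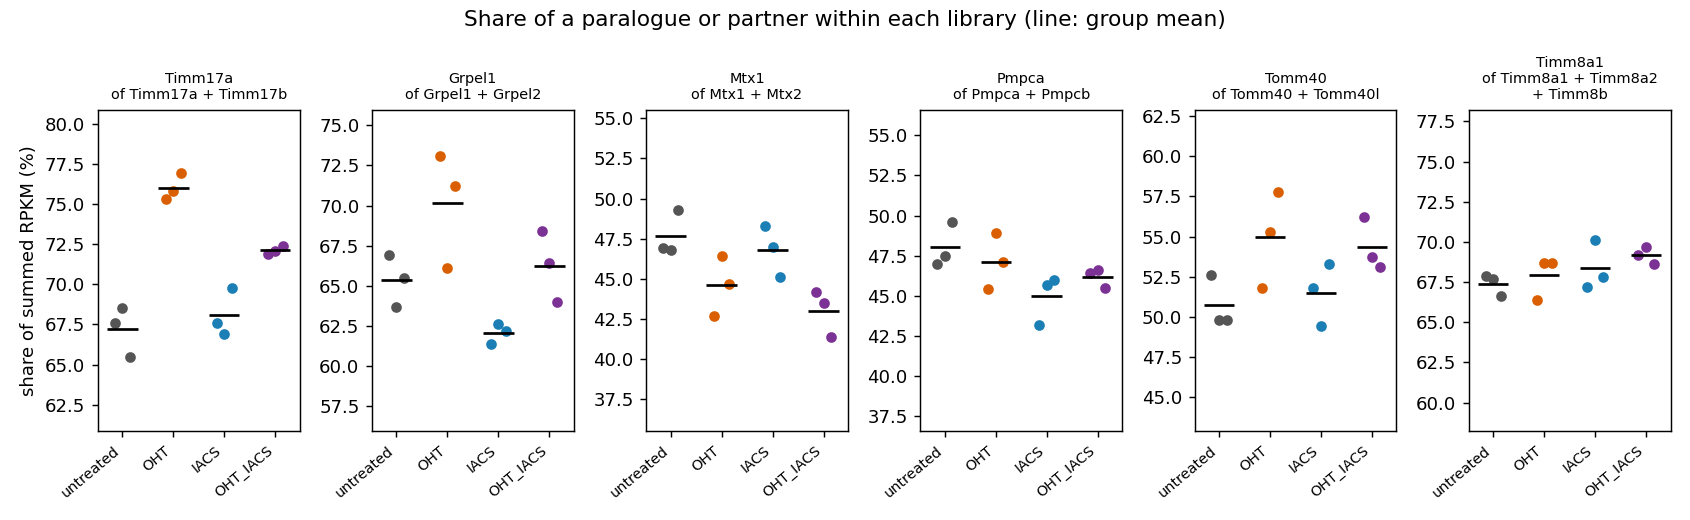
Share of a paralogue or partner in the summed RPKM of its set, in percent, with 3 libraries a condition and the mean as a line. Every axis spans 20 percentage points and does not start at 0. The OHT libraries of Timm17a lie from 75.3% to 76.9%, above the untreated range of 65.5% to 68.5%, with those of OHT_IACS in between.

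Of 35 other genes of the pathway (chaperones, proteases, porins and inner membrane organisers), 10 were called higher and none lower with OHT (all genes 18.2% and 18.2%), and 4 were called higher and 4 lower with IACS (8.15% and 7.74%). In OHT_IACS against OHT, 5 were called higher and 5 lower (11.9% and 11.8%), and in OHT_IACS against IACS 4 were called higher and none lower (12.3% and 14.2%). Those with the smallest adjusted p for OHT were Mipep, the peptidase that trims after Pmpcb (0.35, adjusted p = 0.00025), Dnlz, a co-chaperone of mitochondrial Hsp70 (0.30, adjusted p = 0.0062), and the porin Vdac1 (0.26, adjusted p = 0.0070). For IACS they were Oma1, a stress-activated protease of the inner membrane (0.42, adjusted p = 0.013), Immp1l, a subunit of the inner membrane peptidase (-0.51, adjusted p = 0.014), and Pitrm1, which degrades cleaved presequences (0.24, adjusted p = 0.015). In primed cells IACS gave Aifm1, the anchor of Chchd4, at -0.32 (adjusted p = 0.00064), Oma1 at 0.50 (adjusted p = 0.0034) and Dnlz at -0.34 (adjusted p = 0.0057). In OHT_IACS against IACS they were Mipep (0.27, adjusted p = 0.0024), Apoo, a subunit of the cristae organiser (0.23, adjusted p = 0.021), and Dnlz (0.23, adjusted p = 0.032). None was called in the interaction, where Xpnpep3 (-0.33, adjusted p = 0.22), Bcs1l (-0.28, adjusted p = 0.25) and Aifm1 (-0.16, adjusted p = 0.37) came first.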

How the data were processed

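Total RNA, depleted of ribosomal RNA, had been made into stranded libraries. The submitters' processing notes name mm9, TopHat2 2.0.8, SAMtools, featureCounts 1.4.5-p1 and DESeq2. The annotation, the handling of multimapped reads and the strand setting are not given in the sources used here. The authors deposited RPKM per gene and library, and beside them the log2 fold changes and the p-values, adjusted, of their own comparisons, which were not used. The methods' test takes counts rather than RPKM, and it was not run on reads recovered from the RPKM. Instead, log2(RPKM + 0.1) was compared with limma 3.58.1 (R 4.3.3), two-sided, with a mean-variance trend. Each library was rescaled by the median of its ratios to the geometric mean of each gene. All 12 libraries entered a single fit of the 9745 genes that reached an RPKM of 1 in 3 or more libraries. P-values were adjusted by Benjamini-Hochberg over all genes of a comparison, and 0.05 was the threshold. Reads, gene lengths and library totals were recovered from the RPKM steps, whole to 0.0001 reads for 15451 of 15451 genes above 0. A gene above 0 in only 1 library passes this check by construction. Reads that share a common divisor in all libraries would be understated. In a chi-square test of the recovered reads, IACS replicates 1 and 2 were within sampling noise over all genes (chi-square per gene 1.019) but not over genes under 0.1 reads per base (1.092), where all 12 pairs of replicates differed, so they were kept as separate samples. The recovery and the fit were tested on simulated data. For the fit, reads were drawn in proportion to the library total, and genes were changed by more than any member changed. That simulation therefore did not cover the dependence on the total seen here, nor changes as small as those of the members. Groups and replicate numbers were taken from the sample titles.

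Values in every library are given for the 3 called members with the largest change in each comparison, for members called in at least 2 of the first 3 comparisons, and for Tomm40, Samm50, Timm23, Timm22, Chchd4 and Pmpcb. Other called members are given by their log2 fold change, and of the other pathway genes the 3 with the smallest adjusted p in each comparison are named. The members and lists were chosen with earlier results of these data known. Alternatives were another pseudocount, no filter or a stricter one, RPKM as deposited, the replicate block, only the compared groups, the log2 library total as a covariate, limma voom on recovered reads, and each library left out. Chosen after seeing the data were OHT replicate 2 alone and the mean of IACS replicates 1 and 2. Near-identical copies were sought in GENCODE vM21 transcripts, at 95% identity or more over at least 150 bases. Python 3.11.15, pandas 2.3.3 and scipy 1.17.1 were also used. One marker of the B cell precursor list is not reported here.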

Additional observations from a re-analysis of the deposited data

How the results depend on the processing

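Among members called in a comparison, and for Tomm40, Samm50, Timm23, Timm22, Chchd4 and Pmpcb, no alternative fit gave a called change of opposite sign. Tomm20 with IACS was not among these. It lay at 0.02 in the fit of all libraries and at -0.13 (limma, adjusted p = 0.028) with the library total as a covariate. The other pathway genes were not compared across the alternatives. Left out in turn, single libraries gave 10 to 24 members called higher and 1 to 4 lower for OHT (median 0.077 to 0.257), with 24 without OHT replicate 2 and 4 falls without OHT replicate 1. For IACS they gave 0 to 3 higher (median -0.026 to 0.008), and for OHT_IACS against OHT 2 to 15 lower (median -0.137 to -0.012). For OHT_IACS against IACS they gave 2 to 8 higher and 1 to 3 lower (median 0.045 to 0.10), and for the interaction 0 to 3 lower. Over the same fits, calls over all genes in either direction ran from 2658 to 4126 for OHT. They ran from 1521 to 2995 for OHT_IACS against OHT and from 3 to 149 for the interaction. The library total as a covariate gave 8 higher and 1 lower for OHT (median 0.039), 4 lower for IACS (median -0.070), 5 lower for OHT_IACS against OHT, and 6 higher for OHT_IACS against IACS (median 0.040). OHT replicate 2 alone, assumed to vary like the other groups, gave 5 higher for OHT (median 0.013), 0 lower for OHT_IACS against OHT (median 0.073) and 9 higher for OHT_IACS against IACS. RPKM as deposited gave 1 lower for OHT and a median of 0.008 for IACS. Only the compared groups gave 1 lower for OHT and 7 higher for OHT_IACS against IACS. Limma voom on recovered reads gave 5 higher for OHT_IACS against IACS, and the mean of IACS replicates 1 and 2 gave 1 lower there. The cause of these shifts was not tested. The replicate block changed no count of members called (13 higher and 2 lower for OHT), and same-numbered libraries correlated from -0.17 to 0.10, so the numbers were taken as names.

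The small size of the members' changes, all within 0.4 on the log2 scale in the fit of all libraries, and 3 libraries a group limit what could be called. The dependence of RPKM on the library total touches every OHT comparison, and also IACS against untreated. In the latter the median was -0.019 in the fit of all libraries and -0.07 with the total as a covariate. Stretches shared with other transcripts leave the reads of 16 members uncertain. For Pmpca, Grpel1, Tomm40, Tomm40l and Immt, the only such transcripts came from an overlapping gene on the opposite strand.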
